A study of Rattus rattus with 8 samples.

Results

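The gene set examined here is made of 10 genes of the Notch pathway: the receptors Notch1 and Notch2, the ligands Jag1, Jag2, Dll1 and Dll4, and the target genes Hey1, Hey2, Heyl and Hes1. They were chosen by symbol, and each was found once among the 30957 genes of the table. No measured value entered the rule that lists them. RNA sequencing compared diploid (2n) with tetraploid (4n) cells of neonatal cardiomyocyte cultures from SD rat pups, taken 1 to 3 days after birth, with 4 libraries per group from independent experiments. Both groups had gone through the same steps. Cells were enriched by differential adherence and cultured for 24 h, with the DNA synthesis blocker AraC (0.2 mM), insulin, transferrin and selenium. They were then starved of serum, held at 1% oxygen for 48 h, stained with a Hoechst dye at 2 µg/mL and sorted by DNA content. No normoxic or unsorted library was analysed here. The comparison is between sorted fractions of hypoxic cultures and says nothing of the response to hypoxia itself. Libraries sharing a replicate number are taken below to come from the same culture, which the labels do not state. By DNA content alone, tetraploid nuclei, binucleated cells and cells in G2 or M phase cannot be told apart.

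Notch receptors are single-pass membrane proteins that are activated by ligands of the Jagged and Delta-like families on a neighbouring cell. Ligand binding exposes the receptor to cleavage by ADAM proteases and then by gamma-secretase, and the released intracellular part joins the DNA-binding protein Rbpj and a Mastermind coactivator in the nucleus. Hes and Hey genes, which encode transcriptional repressors with a basic helix-loop-helix domain, are direct targets. In the heart and its vessels, Dll4 and Notch4 are known from endothelial cells, Notch3 and Heyl from smooth muscle cells and pericytes, Hey2 from the ventricular muscle, and Notch1 from endocardium, endothelium and immature cardiomyocytes.

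The libraries held 14783521 to 21033772 counts, of which mitochondrial genes took 2.87% to 3.82% in the 2n libraries and in 4n replicate 1 but 24.1% to 25.9% in 4n replicates 2, 3 and 4. Markers of several cell types were present. The 12 cardiomyocyte markers summed to 510 to 990 CPM (counts scaled to a common library size) in 2n and to 4237 to 31187 CPM in 4n, with Actc1 and Myh7 the most abundant. The 8 fibroblast markers summed to 44355 to 57772 CPM in 2n and 29527 to 51619 CPM in 4n, with Col1a1 and Col3a1 the most abundant. The fibroblast sum was the larger of the 2 in every library except 4n replicate 3 (29527 against 31187 CPM), although the labels call the cells cardiomyocytes. In bulk RNA, fewer cells of a type and less RNA per cell cannot be told apart.

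Of the 10 genes, the ligand Dll4 rose in 4n cells, by 9.02-fold in the fit that pairs libraries by replicate number. Jag2, another ligand, stood 8.67-fold higher in 4n with groups that did not overlap, and missed the threshold in the paired fit. The receptors Notch1 and Notch2, the ligand Jag1 and the 4 target genes did not pass, with log2 fold changes from -0.49 to 0.29. Dll1 had too few counts to be tested. Dll4 and Jag2 reached the filter level of 0.595 CPM in only 2 and 3 of the 2n libraries, and the filter asks for 4. Neither would have been tested on its 2n libraries alone, so a fall below that level in 4n would have left them untested. Of the 9 genes tested, 1 was called higher and 0 lower (edgeR quasi-likelihood test, adjusted p under 0.05), and 5 of the 9 had an unadjusted p under 0.05, as did 29.9% of all genes tested. Across all 12983 genes tested, 4.27% were called higher and 0.608% lower in the paired fit, 4.88% in all. Without the pairing, 1 of the 9 genes was called higher and 0 lower, against 2.67% and 0.0077% of all genes. That call was Jag2, while Dll4 did not pass without the pairing. A single call among 9 genes does not set the group apart from that background. The median log2 fold change of the 9 genes was -0.03, beside -0.02 over all genes tested, and 4 of the 9 were positive, beside 47.7% of all genes.

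**Figure D1:**
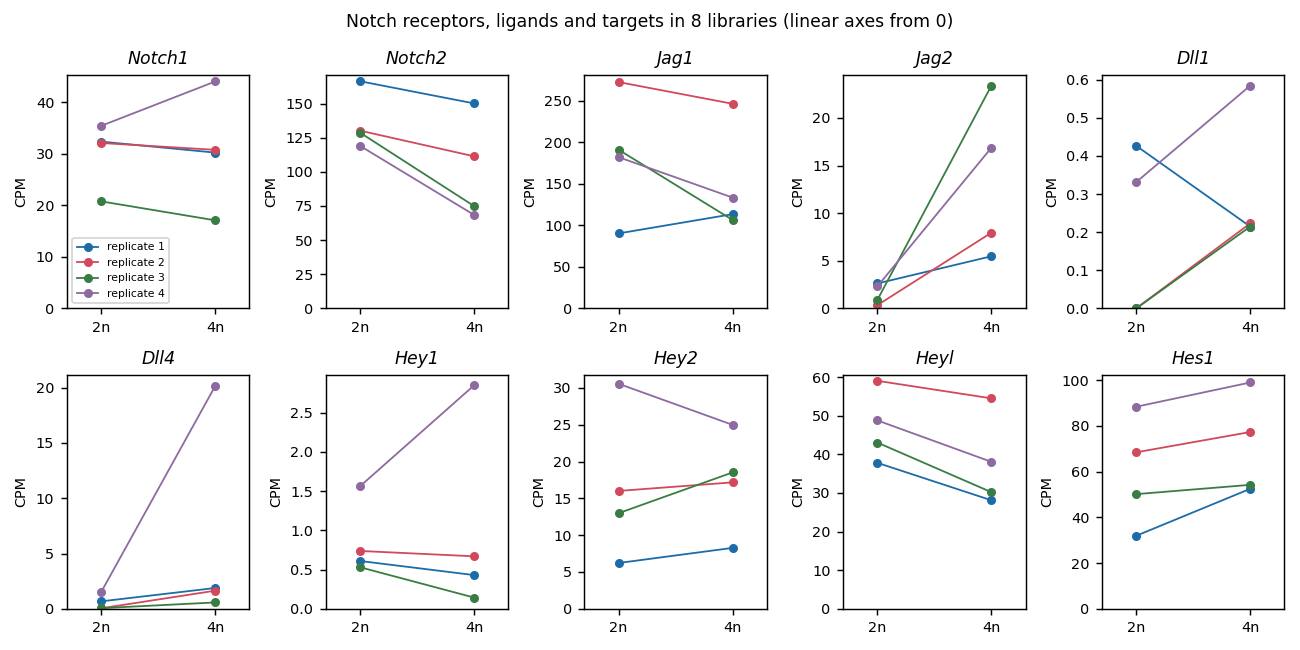
Level of each of the 10 genes in CPM (vertical axes, linear from 0, each on its own scale) in the 2n and 4n library of each replicate, with a line joining libraries that share a replicate number. Jag2 and Dll4 climb from 2n to 4n in all 4 pairs, Notch2 and Heyl drop in all 4.

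Levels of different genes were compared per length, as CPM per kilobase. In 2n cells Hes1 stood highest at 41.3 ± 16.8 CPM per kb, followed by Jag1 at 33.0 ± 13.3 and Notch2 at 17.1 ± 2.62 (SD, n = 4 each). The ranges of Hes1 and Jag1 overlapped, as did those of Jag1 and Notch2. Heyl at 10.1 ± 1.95, Hey2 at 6.15 ± 3.84 and Notch1 at 3.17 ± 0.676 CPM per kb came next in 2n (SD, n = 4 each). Of these neighbours, Notch2 lay apart from Heyl, while Heyl and Hey2, and Hey2 and Notch1, overlapped. The 4 lowest genes in 2n were Hey1 at 0.916 ± 0.507, Jag2 at 0.342 ± 0.242, Dll4 at 0.125 ± 0.152 and Dll1 at 0.0515 ± 0.0605 CPM per kb (SD, n = 4 each), each overlapping the next. Hey1 lay below Notch1 without overlap. In 4n the first 6 places were the same, and Jag2 at 2.96 ± 1.82 and Dll4 at 1.33 ± 2.06 CPM per kb moved above Hey1 at 1.09 ± 1.32 (SD, n = 4 each). From Notch2 down to Hey1 every neighbouring pair overlapped in 4n, but overlap of ranges does not test an exchange of places within libraries. Compared library by library per kb, Jag2 was below Hey1 in every 2n library and above it in every 4n library. Dll4 was below Hey1 in every 2n library and above it only in 4n replicate 4.

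Among the ligands, Dll4 lies on chromosome 3 from 111135021 to 111145986 in the rat build Rnor_6.0 (ENSRNOG00000014011). Its level in 2n replicates 1 to 4 was 0.671, 0.0434, 0.0530 and 1.51 CPM, and in 4n replicates 1 to 4 it was 1.88, 1.64, 0.572 and 20.2 CPM. The 2n libraries of replicates 2 and 3 held 1 read each, and 4n replicate 4 stood far above every other library with 276 reads. The groups overlapped, since 4n replicate 3 was below 2n replicates 1 and 4. Each 4n library still exceeded the 2n library of the same replicate number. By pair, the ratio of 4n to 2n was 2.80 for replicate 1 (95% exact interval 1.39 to 6.12) and 37.7 for replicate 2 (6.09 to 1556). It was 10.8 for replicate 3 (1.45 to 479) and 13.3 for replicate 4 (9.21 to 19.9), where the intervals cover counting error only. All 4 intervals lay above a ratio of 1. The filter level of 0.595 CPM was reached by 2 of the 2n and 3 of the 4n libraries. Dll4 thus passed the filter only with both groups counted together, and its 2n libraries alone would not have passed. The log2 fold change was 3.17 ± 0.51 (SE, paired edgeR test, adjusted p = 0.0279), higher in 4 of 4 pairs, a direction that 20.2% of all genes shared. Without the pairing the log2 fold change was 3.39 ± 1.29 (SE) and did not pass (edgeR adjusted p = 0.226). Leaving out the pair of replicate 2 also ended the call, at 2.91 on the log2 scale (edgeR adjusted p = 0.0960), and so did leaving out that of replicate 4, at 2.71 (edgeR adjusted p = 0.248). The size of the fold also moved with the setting, to 3.87 on the log2 scale without the pair of replicate 1 and to 1.75 with limma on log2(FPKM + 0.1), a scale that understates changes of low genes. In the edgeR fits without replicate 2 and without replicate 4, 0 of all genes passed, while at an unadjusted p under 0.05 the genes standing higher numbered 1962 and 1404.

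Endothelial markers moved with Dll4. The 11 found of 12 listed summed to 47.1 to 90.4 CPM in 2n and to 81.1, 106, 102 and 490 CPM in 4n replicates 1 to 4, so the library with the most Dll4 also had the largest endothelial sum. Of these 11 genes 6 rose and 0 fell in the paired fit, with a median log2 fold change of 2.46, while 0 of the 11 passed without the pairing. None of the 11 was at 0 in all libraries. The most abundant were Cdh5, the cadherin of endothelial junctions, which went from 5.79, 1.95, 2.76 and 15.0 CPM in 2n to 15.0, 21.4, 18.6 and 176 CPM in 4n, and Tek, an angiopoietin receptor, which did not pass (log2 fold change -0.22, edgeR adjusted p = 0.410). The part of endothelial cells in the Dll4 result was not tested. The 3 genes whose profile over the 8 libraries was most like that of Dll4, out of 10239 compared, were Adgrf5, an adhesion receptor, Cdh5 again, and the chemokine receptor Cxcr4. Their centred log2 CPM profiles differed from that of Dll4 by a root mean square of 0.54, 0.60 and 0.68, against a size of 2.09 for the profile of Dll4 itself.

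Jag2 lies on chromosome 6 from 137711155 to 137733026 (ENSRNOG00000013927). Its level in 2n replicates 1 to 4 was 2.62, 0.347, 0.901 and 2.32 CPM, from 8 to 49 reads, and in 4n replicates 1 to 4 it was 5.48, 7.96, 23.4 and 16.9 CPM, from 102 to 327 reads. Every 4n library stood above every 2n library, which was so for 7.68% of all genes tested, and 4n replicate 3 was the highest. By pair, the ratio of 4n to 2n was 2.09 in replicate 1 (95% exact interval 1.45 to 3.06), 22.9 in replicate 2 (11.2 to 54.5), 26.0 in replicate 3 (16.0 to 45.1) and 7.28 in replicate 4 (5.33 to 10.1). The ratio was smallest in replicate 1. These intervals, too, cover counting error only and not the spread between cultures. The log2 fold change was 3.12 ± 0.65 (SE, 95% interval 1.49 to 4.74) and did not pass in the paired edgeR test (adjusted p = 0.0586). It passed without the pairing, at 3.13 ± 0.66 (SE, edgeR adjusted p = 0.0413). It also passed without the pair of replicate 1, at 3.82 (edgeR adjusted p = 0.00169), and by DESeq2 and limma-voom with the pairing (adjusted p = 2.70e-04 and 0.0165).

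Cardiomyocyte markers moved with Jag2. They summed to 990, 510, 770 and 968 CPM in 2n replicates 1 to 4 and to 4237, 8166, 31187 and 11392 CPM in 4n, and 11 of the 12 rose in the paired fit (12 without the pairing), with a median log2 fold change of 4.07 and none at 0. Replicate 3 was highest in 4n, and replicate 2 lowest in 2n, for the marker sum and for Jag2 alike. The part of cardiomyocyte content in the Jag2 result was not tested. The genes with the most similar profiles were Camta1, a calmodulin-binding transcription activator, Lamb3, a laminin chain of epithelial basement membranes, and Ddc, the aromatic amino acid decarboxylase. Their profiles differed from that of Jag2 by a root mean square of 0.26, 0.26 and 0.34 on the log2 scale, against 1.82 for the profile of Jag2 itself. None of these 3 genes passed in the paired fit (edgeR adjusted p = 0.0571, 0.0659 and 0.0589).

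**Figure D2:**
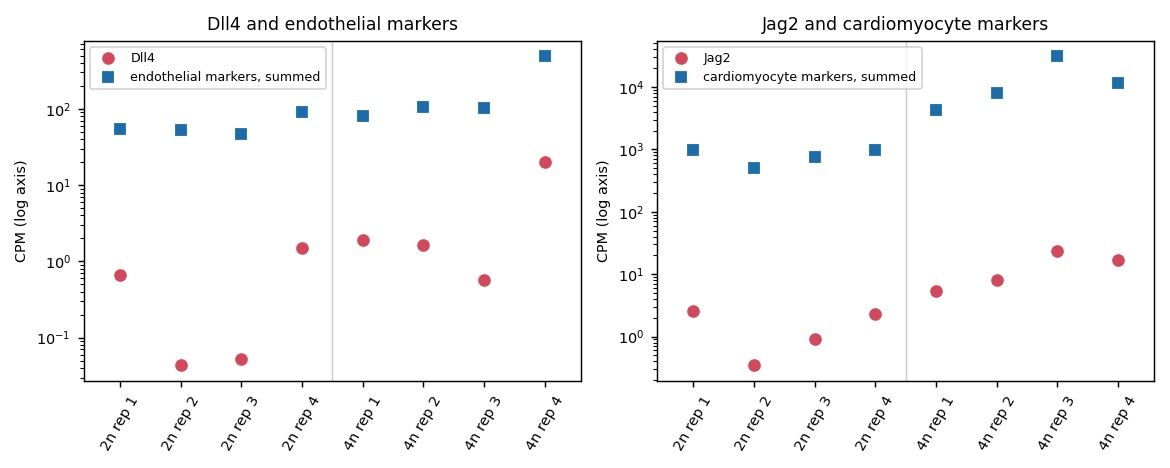
Level of Dll4 (left) and Jag2 (right) in each of the 8 libraries, in CPM on a log axis, beside the summed CPM of endothelial and of cardiomyocyte markers. Dll4 and the endothelial sum are both highest in 4n replicate 4 (20.2 and 490 CPM), and Jag2 and the cardiomyocyte sum are both highest in 4n replicate 3 (23.4 and 31187 CPM).

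Jag1, on chromosome 3 from 130079361 to 130114770, was by far the most abundant ligand. It had 90.2, 272, 191 and 182 CPM in 2n replicates 1 to 4 and 113, 246, 106 and 133 CPM in 4n. The groups overlapped widely, the 4n library being lower in 3 pairs and higher in that of replicate 1. On the log2 scale 4n differed from 2n by -0.28 ± 0.18 (SE, 95% interval -0.71 to 0.15, edgeR adjusted p = 0.339). Dll1, on chromosome 1, had 7, 0, 0 and 7 reads in 2n and 4, 3, 3 and 8 reads in 4n, so that 2 libraries of 2n had none. Most of these values lie at or near 3 reads, the limit that a count of 0 allows, and no fold is given.

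The make-up of ligand mRNA followed from these levels. Jag1 took 95.1%, 99.8%, 99.4% and 97.2% of the summed CPM per kb of the 4 ligands in 2n replicates 1 to 4, and 92.4%, 95.3%, 78.1% and 74.2% in 4n. Its share was lower in 4n in 4 of 4 pairs, by 12.9 percentage points on average, with 4n replicate 2 just above 2n replicate 1. Permuting the libraries exactly, two-sided and without pairing, gave p = 0.0571 for this share (adjusted p = 0.0857 over 3 shares). Exact sign flips within pairs gave p = 0.125, the smallest that 4 pairs allow. In 4n replicate 3 the rest was mostly Jag2, at 21.2% of ligand mRNA, while in 4n replicate 4 it was split between Dll4 at 13.7% and Jag2 at 11.6%. These shares do not depend on how libraries were scaled, and they were chosen after the values had been seen.

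**Figure D3:**
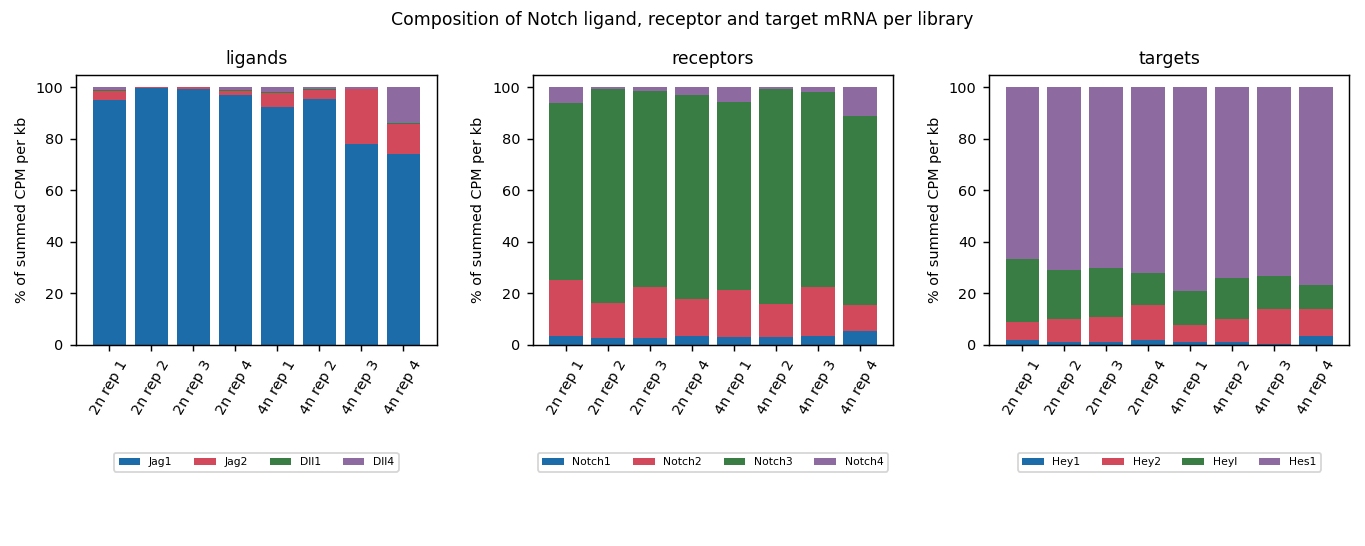
Share of each gene in the summed CPM per kilobase (vertical axis, %) of the 4 ligands, the 4 receptors and the 4 targets in each library. Jag1 makes up at least 95.1% of ligand mRNA in the 2n libraries and 74.2% to 95.3% in the 4n libraries, Notch3 dominates the receptors in all 8, and Hes1 the targets.

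Among the receptors, Notch2 lies on chromosome 2 from 200187184 to 200317621 (ENSRNOG00000018835). It had 166, 130, 129 and 119 CPM in 2n replicates 1 to 4 and 150, 111, 75.0 and 68.5 CPM in 4n. The 4n library was lower in 4 of 4 pairs, as for 19.7% of all genes, with the larger gaps in replicates 3 and 4, and the groups overlapped through 4n replicate 1. The log2 fold change was -0.49 ± 0.14 (SE, 95% interval -0.80 to -0.17), and it did not pass in the paired edgeR test (adjusted p = 0.0737). It passed by DESeq2 with the pairing (-0.50, adjusted p = 0.0183) and in edgeR without the pair of replicate 1 (-0.62, adjusted p = 0.0348). The genes with the most similar profiles were the histone deacetylase Hdac4, Itpripl2, and the collagen receptor Ddr2, which is also on the fibroblast list, at root mean square differences of 0.09, 0.10 and 0.10 against 0.42 for Notch2 itself. Fibroblast markers moved the same way: 8 of 8 had negative folds, 2 of them fell (Pdgfra and Lum; 0 without the pairing), and the median log2 fold change was -0.59. Their part in the Notch2 values was not tested.

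Notch1, on chromosome 3 from 3905453 to 3951025, had 32.4, 32.1, 20.8 and 35.4 CPM in 2n replicates 1 to 4 and 30.2, 30.8, 17.1 and 44.05 CPM in 4n. Replicate 3 was lowest and replicate 4 highest in both fractions, and the fractions overlapped almost entirely. Its fitted log2 fold change was -0.03 ± 0.12 (SE, edgeR adjusted p = 0.900). In this paired fit its 95% interval ran from -0.31 to 0.25. Without the pairing the log2 fold change was 0.017 ± 0.27 (SE), which leaves room for a larger difference in either direction. The remaining receptors come from the fixed list of other pathway genes. Notch3 was the most abundant receptor, with 456 to 740 CPM in 2n and 274 to 666 CPM in 4n, and took 68.9% to 83.5% of receptor mRNA per kb over the 8 libraries. It did not pass (log2 fold change -0.28 ± 0.15 SE, edgeR adjusted p = 0.237). Notch4 had 38.2, 4.17, 6.89 and 19.0 CPM in 2n replicates 1 to 4 and 38.6, 4.46, 6.30 and 61.4 CPM in 4n. Its 2n and 4n values were nearly equal in the cultures of replicates 1, 2 and 3 and set apart only in replicate 4, and it did not pass (log2 fold change 0.46 ± 0.34 SE, edgeR adjusted p = 0.401). The share of Notch2 among the 4 receptors averaged 17.3% ± 3.97 (SD, n = 4) over the 2n libraries and 15.1% ± 4.27 (SD, n = 4) over the 4n libraries. It was lower in 4n in 4 of 4 pairs, with an exact unpaired permutation p of 0.457 (two-sided, adjusted 0.457) and an exact sign-flip p of 0.125, the smallest possible.

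The target genes, which are read as output of the pathway although other signals also act on them, showed no call. Hes1, on chromosome 11 from 74312806 to 74315248, had 31.9, 68.4, 50.1 and 88.3 CPM in 2n replicates 1 to 4 and 52.4, 77.3, 54.2 and 98.9 CPM in 4n. The 4n library was higher in 4 of 4 pairs, most in replicate 1, while the groups overlapped. The log2 fold change was 0.29 ± 0.12 (SE, 95% interval 0.01 to 0.57) and did not pass (edgeR adjusted p = 0.157). Heyl, on chromosome 5 from 140923914 to 140940905, had 37.8, 59.1, 43.1 and 48.8 CPM in 2n and 28.1, 54.5, 30.2 and 38.1 CPM in 4n. It was lower in 4n in 4 of 4 pairs with overlapping groups. The log2 fold change of -0.35 ± 0.10 (SE, 95% interval -0.59 to -0.12) did not pass in edgeR (adjusted p = 0.0769) and passed by DESeq2 (-0.36, adjusted p = 0.0484). The 10 smooth muscle and pericyte markers, with Acta2 and Tagln the most abundant, summed to 6274 to 10300 CPM in 2n and 5961 to 10815 CPM in 4n. Of the 10, 0 passed in either direction, 6 had positive folds and 4 negative, with a median of 0.03 on the log2 scale. Cnn1, at 0.62, had the smallest p of this list and was higher in 4 of 4 pairs with overlapping groups (edgeR adjusted p = 0.0698). Pdgfrb, at -0.49, was lower in 4 of 4 pairs (edgeR adjusted p = 0.0781). The groups of Pdgfrb did not overlap, as for 3.69% of all genes in this direction.

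Hey2, on chromosome 1 from 29191192 to 29201531, had 6.22, 16.0, 13.0 and 30.6 CPM in 2n replicates 1 to 4 and 8.27, 17.2, 18.5 and 25.0 CPM in 4n. It was higher in 4n in 3 pairs and lower in that of replicate 4, with a log2 fold change of 0.17 ± 0.16 (SE, 95% interval -0.20 to 0.54, edgeR adjusted p = 0.496). With libraries scaled by their totals its sign turned, to -0.08. In the same libraries the cardiomyocyte markers had the median log2 fold change of 4.07 given above. Hey1, on chromosome 2 from 95320283 to 95322696, was scarce, with 10, 17, 10 and 33 reads in 2n and 8, 9, 2 and 39 reads in 4n. It stood highest in replicate 4 in both fractions, at 1.56 and 2.85 CPM. Its log2 fold change was -0.08 ± 0.46 (SE, edgeR adjusted p = 0.927). The 95% interval of -1.14 to 0.98 is wide, so a change within it in either direction is not settled. Among the 4 targets, Hes1 took 66.6% to 72.2% of the summed CPM per kb in 2n and 73.4% to 79.1% in 4n. The groups did not overlap, the share was higher in 4 of 4 pairs by 5.88 percentage points on average, and exact permutation without pairing, two-sided, gave p = 0.0286, the smallest that 4 against 4 libraries allow. Adjusted over the 3 shares it was 0.0857 and did not pass, and exact sign flips within pairs gave p = 0.125, again the smallest possible.

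**Figure D4:**
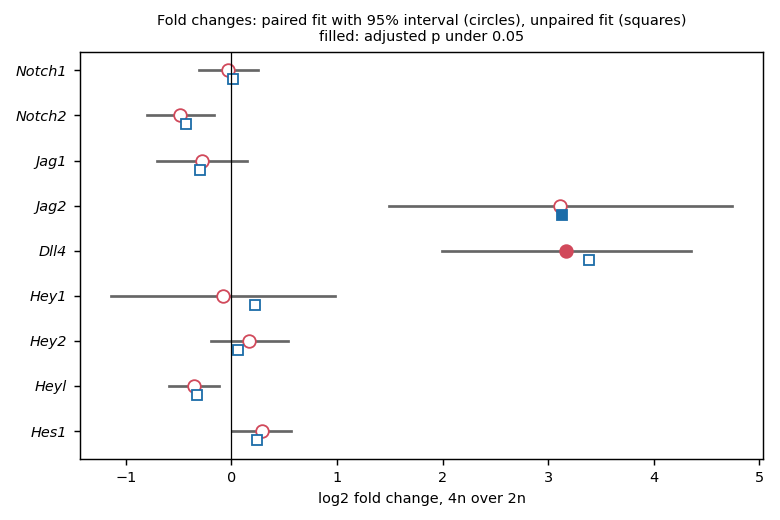
Log2 fold change of 4n over 2n (horizontal axis) for the 9 genes tested, with circles and 95% intervals from the paired edgeR fit and squares from the unpaired fit, filled where the adjusted p is under 0.05. Dll4 is filled in the paired fit and Jag2 in the unpaired fit, both near 3, and the other 7 genes lie between -0.49 and 0.29 in the paired fit.

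Several of the 10 genes differed between cultures. A test of the replicate number in the same edgeR model, added after the values had been seen, called 5 of the 9 genes tested: Hey2 (adjusted p = 0.0140), Dll4 (0.0156), Hes1 (0.0224), Notch1 (0.0378) and Heyl (0.0403). This term was called in 8.21% of all genes. Between the cultures with the highest and lowest mean of both fractions, Dll4 spanned 4.08, Hey2 1.93, Hes1 1.19, Notch1 1.06 and Heyl 0.80 (log2 scale). Their mean differences between fractions were 2.62, 0.18, 0.29, -0.03 and -0.35. A range over 4 cultures tends to exceed a mean of 4 signed differences, so the 2 measures do not rank culture against fraction. The culture of replicate 4 was highest for Hes1, Hey1, Hey2 and Notch1 in both fractions, and that of replicate 1 was lowest for Hes1, Hey2 and Heyl in both. Without the pair of replicate 4, 0 of the 8 genes then tested were called for this term (Hey1 no longer passed the filter), and without replicates 1 and 2 in turn 3 and 2 of the 9 were called. What differed between the experiments, from the pups to the handling of RNA, cannot be told apart here.

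The other genes of the pathway were taken from a list of 64, of which 60 were found in the table by symbol. Rbpj is there on 2 rows, which makes 61, and 52 were tested. In the paired fit 2 of the 52 were called higher and 2 lower, 3.85% in each direction, beside 4.27% and 0.608% of all genes. At an unadjusted p under 0.05 there were 20 of the 52, beside 29.9% of all genes. The median log2 fold change was -0.11, with 19 positive. One of the higher calls was Mfng, a fringe glycosyltransferase that modifies Notch receptors, with 0.183, 0, 0 and 0.521 CPM in 2n replicates 1 to 4 and 0.860, 1.04, 0.787 and 6.94 CPM in 4n (edgeR adjusted p = 0.0275). It was tested only because its 4n libraries reached the filter level of 0.595 CPM, which 0 of the 2n libraries did, so its call could have gone only this way. It was highest in the same library as Dll4. Psen2, a catalytic subunit of gamma-secretase, rose from 58.8, 47.5, 75.8 and 62.0 CPM to 67.2, 69.2, 137 and 96.4 CPM (log2 fold change 0.56 ± 0.12 SE, edgeR adjusted p = 0.0453). The call was also lost without the pair of replicate 3 (0.46, edgeR adjusted p = 0.0593), with library totals in place of TMM scaling (0.31, edgeR adjusted p = 0.108) and with limma on FPKM (0.31, adjusted p = 0.102).

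Rbpj on chromosome 14, from 59658935 to 59735450, fell from 207, 116, 121 and 159 CPM in 2n replicates 1 to 4 to 153, 101, 84.4 and 113 CPM in 4n. Its log2 fold change was -0.42 ± 0.09 (SE, edgeR adjusted p = 0.0491), lower in 4 of 4 pairs, and the call was lost on leaving out any of the 4 pairs (edgeR adjusted p from 0.0597 to 0.257). A second row with this symbol on chromosome 5, at 3.72 to 10.4 CPM, did not pass, and how reads were split between the rows is uncertain. Dtx4, a ubiquitin ligase of the Deltex family that acts on Notch, fell from 40.7, 39.6, 35.0 and 29.6 CPM to 27.8, 28.1, 19.7 and 19.8 CPM. Its groups did not overlap, which was so for 3.69% of all genes in this direction, and its log2 fold change was -0.61 ± 0.10 (SE, edgeR adjusted p = 0.0293). None of these 4 genes passed without the pairing (edgeR adjusted p = 0.142 for Mfng, 0.251 for Psen2, 0.390 for Rbpj and 0.111 for Dtx4), and none passed without the pair of replicate 2 or of replicate 4.

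Over all genes tested, 6792 of 12983 had negative folds and 0.608% were called lower, and no role was tested as a group. By role, the 9 rows tested of the nuclear complex had 8 negative folds and a median of -0.26, with Rbpj on chromosome 14 the one called. Of 9 corepressors tested 7 were negative (median -0.23), none passed, and Kdm5a, a histone demethylase, came closest at -0.26 (edgeR adjusted p = 0.129). Genes for ligand ubiquitination and endocytosis were split, 3 positive and 3 negative. Mib1, the ubiquitin ligase that ligands need for their endocytosis, had the smallest p at a log2 fold change of -0.43 (edgeR adjusted p = 0.108). Of 7 tested genes of receptor cleavage 4 were positive, with Psen2 the one called. Among 10 negative regulators 7 had negative folds, Dtx4 alone being called. Of the ligand-like genes, Dlk1 stood at 11.6 to 22.5 CPM in the 8 libraries and did not pass (log2 fold change -0.20, edgeR adjusted p = 0.337). In the Hes family Hes6 alone had enough counts to be tested, at 10.8 to 21.8 CPM, and did not pass (0.24, edgeR adjusted p = 0.321).

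**Figure D5:**
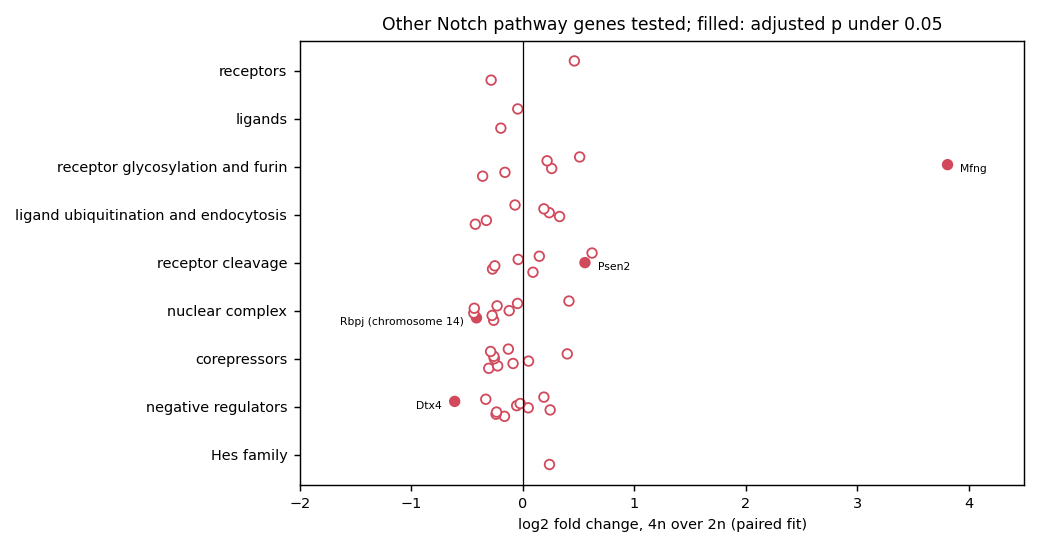
Log2 fold change of 4n over 2n in the paired edgeR fit (horizontal axis) for the 52 other Notch pathway rows tested, by role (vertical axis), filled where the adjusted p is under 0.05. All but Mfng lie within 1 log2 unit of 0, and Mfng, Psen2, Rbpj and Dtx4 are filled.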

How the data were processed

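Per the submitters' processing notes, HISAT2 2.0.4 and the build Rnor_6.0 of Rattus norvegicus were used, although the labels name Rattus rattus. Which tool counted reads, and whether by strand, is not given in the sources used here. Counts, as deposited, are whole numbers per Ensembl gene. The deposited FPKM values, made by the authors, equal these counts divided by the library total and a constant per gene, which served here as the gene's length. No locus of the 10 genes overlapped another row of the table.

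Counts were tested with edgeR 4.0.16 (R 4.3.3): genes kept by filterByExpr, TMM scaling, a robust quasi-likelihood fit with replicate number as a block, two-sided, Benjamini-Hochberg adjustment over all genes tested, threshold 0.05. The numbers come from the titles. The descriptions of same-numbered libraries begin with the same code, and their deviations from the group means correlated at 0.43, 0.58, 0.27 and 0.65 for replicates 1 to 4, so libraries were treated as pairs by number. Libraries of a group differed by more than sampling noise (chi-square per degree of freedom 36.7 or more). Log2 CPM values used a prior count of 2. On simulated counts for 4n against 2n over 12830 genes, the paired test recovered 80% of genes changed 2-fold and 96% of those changed 4-fold. There were 26 false among 202 calls, more than the nominal rate. The changed genes were drawn from those averaging at least 1 CPM, so the recovery rates do not cover scarcer genes such as Hey1. Each changed gene was given the same fold in every pair. The ratio of Jag2 ran from 2.09 to 26.0 between pairs, and at 8.67-fold it was not called. The rates therefore do not cover genes whose fold varies that much, and a gene not called may still have changed.

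Named genes are the 10 listed, pathway genes that passed, Notch3, Notch4, Rbpj, the gene of smallest p in each list, and for 3 genes of the set (the one that passed and those next in unadjusted p) the 3 genes of nearest profile with at least 5 CPM on average. All genes and lists were chosen with earlier results of these data known. Listed symbols with no match in the table were not analysed here, nor were sequences. Of the marker lists not described in the report, the epicardial list had 1 of 6 genes called higher, the endocardial list 1 of 2 tested, and the leukocyte and Schwann lists 0 of 1 and 0 of 2. No blood cell marker was tested, and Alas2 was at 0 in all libraries. Alternatives were no pairing, other scalings, no filter, no mitochondrial genes, DESeq2 1.42.0, limma-voom (limma 3.58.1), limma on log2(FPKM + 0.1), and leaving out each pair.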

Additional observations from a re-analysis of the deposited data

Results flagged for a closer look

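In 5 of 42 groups of 4 libraries examined for the 10 genes and the other pathway genes named, 1 library stood far from the other 3. The rule used would flag about 1 in 20 groups of independent, normally distributed values. These groups share the same 8 libraries and some rest on few reads, so that rate does not serve as a comparison here. Of the 5, 3 concern 4n replicate 4: Dll4 at 20.2 CPM against at most 1.88 in the other 4n libraries, Mfng at 6.94 CPM against at most 1.04, and Dll1 at 0.584 CPM, which is 8 reads, against at most 0.223. The endothelial marker sum of that library was 490 CPM, against 81.1 to 106 CPM in the other 4n libraries, and its part was not tested. Kdm5a stood highest in 4n replicate 1 at 93.1 CPM, and Hes6 highest among the 2n libraries in replicate 3 at 17.4 CPM.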

How the results depend on the processing

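In the paired fit 554 genes were called higher and 79 lower in 4n, of the 10 genes 1 and 0, and of the other pathway genes 2 and 2. With no replicate block, so without pairing, these counts were 347 and 1, 1 (Jag2 in place of Dll4) and 0, and 0 and 0. With library totals in place of TMM they were 858 and 2520, 2 and 2, and 1 and 18, and with limma on FPKM 911 and 2017, 2 and 2, and 1 and 15. These last settings move the median log2 fold change of all genes from -0.02 to -0.26, and the share of calls that are higher from 87.5% to 25.4% and 31.1%, so the calls of Notch2 and Heyl as lower under them are to be read against that shift. DESeq2 gave 1278 and 596, 2 and 2, and 4 and 3. With limma-voom the counts were 980 and 162, 2 and 0, and 2 and 2. Leaving out each pair in turn gave 0 to 1254 genes higher and 0 to 399 lower, 0 to 2 and 0 to 1 of the 10 genes, 0 to 4 and 0 to 2 other pathway genes, and 0 to 7 genes of the set differing between cultures, against 5. At an unadjusted p under 0.05, 1962 genes were higher without replicate 2 and 1404 without replicate 4, where none passed after adjustment. The causes of these changes were not tested. Dll4 was called in 9 of 12 alternatives and had a positive fold in all 12, and Jag2 was called in 6 of 12 with a positive fold in all 12. Signs turned for 5 genes that were not called. Without pairing, Notch1 was at 0.017 and Hey1 at 0.22, and Hey1 was at 0.097 with limma-voom. With library totals Hey2 was at -0.078 and Hes6 at -0.0090, and on FPKM they were at -0.061 and -0.011. Leaving out each pair in turn gave -0.14 to 0.055 for Notch1 (positive without replicate 3), -0.082 to 0.23 for Hey1 (positive without replicates 1 and 3, and not tested without replicate 4, where it did not pass the filter) and -0.0068 to 0.66 for Notch4 (negative without replicate 4). Depth limits Dll1, Hey1, Mfng and the 2n values of Dll4 and Jag2 most.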
